A study of Mus musculus with 2 samples.

Results

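The genes described here are 34 genes of DNA replication and S phase, chosen by name for their known functions, by a rule that uses no measured value, although earlier results of these data were known when the list was drawn up. They are 34 of 22383 genes in the table, and all 34 reached the minimum of 20 counts in either library, as did 13596 genes of the table. RNA sequencing compared 2 stable derivatives of iHFSC2, an immortalized mouse line labelled as hair follicle stem cells. The empty vector line carries the lentiviral vector alone, and the shcircSmad5 line carries a vector for a short hairpin directed at circSmad5, which is a circular RNA of the Smad5 gene. Both lines were selected with puromycin from day 4 after infection, were stable at day 15, and gave total RNA that was depleted of ribosomal RNA. Each group had 1 library, so no difference below has a replicate check, no test was possible, and intervals cover counting error only. No line with a control hairpin was compared. Whether each stable line was a pool or a clone is not given in the sources used here, so an effect of the hairpin and a difference that arose during selection cannot be told apart.

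DNA is copied once in each cell cycle. In G1, the origin recognition complex, CDC6 and CDT1 load the MCM2-7 helicase onto origins, and at the start of S phase CDC45 and the GINS complex turn it into an active helicase. Polymerase alpha and primase then lay down primers, PCNA clamps the replicative polymerases to DNA, and FEN1 and LIG1 finish the lagging strand. E2F transcription factors, released from RB proteins by cyclin-dependent kinases, drive many of these genes at the G1/S transition, which is the step that a quiescent hair follicle stem cell takes when it is activated.

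Counts summed to 39261010 for the empty vector library and 38382081 for the shcircSmad5 library. Values given as a pair below stand in that order. Keratinocyte genes were abundant, with 206538 and 224675 counts for Krt5, and none of the 8 basal keratinocyte markers was at 0. Of the 8 bulge stem cell markers, 7 are in the table. Itga6 (41616 and 29412 counts), Sox9 (8829 and 5301), Nfatc1 (2300 and 2077) and Tcf7l1 (483 and 498) were well covered, Krt15 had 253 and 79 counts, and Lhx2 (4 and 5) and Cd34 (0 and 0) were at or near 0. Fibroblast markers summed to 4.19 and 1.68 CPM (counts scaled to a common library total), with Col1a1, Dcn and Lum at 0 in both libraries, immune markers to 6.69 and 5.74 CPM, endothelial markers to 3.10 and 0.790 CPM, and melanocyte markers to 22.2 and 11.7 CPM, nearly all of it Mitf (829 and 426 counts). Smad5 itself had 3109 and 3413 counts. A gene count does not separate the circular from the linear RNA, so the knockdown could not be checked.

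RefSeq promoter windows (GRCm38.p6, 250 bases before to 50 after the transcript start) were matched for 30 of the 34 genes, with 36 windows in all. Windows for Ccne2, Gins1, Gins2 and Mcm4 are missing from this set. An E2F motif, here any of TTTGGCGC, TTTCCCGC, TTTGGCGG and TTTCGCGC on either strand, stood in 14 of the 36 windows (38.9%), against 777 of 32851 windows of all genes (2.37%). The CCAAT box, also read on both strands, stood in 22 of the 36 (61.1%), against 12289 of all windows (37.4%). Below are windows of 4 genes with E2F letters that spanned the observed ratios: E2f2 was higher in the shcircSmad5 library, Dtl lay near 0, and Mcm6 and Pola1 lay below 0. Each is read 5′ to 3′ on the strand of its gene, and capitals mark the E2F motifs. In Mcm6, TTTGGCGC and the reverse complement of TTTCGCGC overlap in 1 run of capitals.

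E2f2, chr4:136172024-136172323, plus strand: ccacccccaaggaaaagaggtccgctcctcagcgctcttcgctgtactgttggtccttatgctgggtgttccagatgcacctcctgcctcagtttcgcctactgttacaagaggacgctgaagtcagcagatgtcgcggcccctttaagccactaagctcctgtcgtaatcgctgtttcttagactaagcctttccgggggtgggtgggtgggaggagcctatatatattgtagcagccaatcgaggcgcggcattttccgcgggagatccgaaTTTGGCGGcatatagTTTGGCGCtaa

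Dtl, chr1:191575495-191575794, minus strand: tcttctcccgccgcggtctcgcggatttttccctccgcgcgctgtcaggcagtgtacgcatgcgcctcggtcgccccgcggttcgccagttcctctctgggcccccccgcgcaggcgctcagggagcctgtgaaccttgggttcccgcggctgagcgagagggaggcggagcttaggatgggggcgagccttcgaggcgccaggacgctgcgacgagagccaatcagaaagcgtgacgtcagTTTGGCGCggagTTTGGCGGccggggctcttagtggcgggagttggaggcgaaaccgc

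Mcm6, chr1:128359656-128359955, minus strand: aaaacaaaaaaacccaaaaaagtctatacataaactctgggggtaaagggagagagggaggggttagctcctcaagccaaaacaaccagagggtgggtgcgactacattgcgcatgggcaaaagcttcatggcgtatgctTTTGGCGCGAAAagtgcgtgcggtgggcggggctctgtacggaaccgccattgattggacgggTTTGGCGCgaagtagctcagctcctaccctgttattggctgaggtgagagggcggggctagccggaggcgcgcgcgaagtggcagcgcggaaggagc

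Pola1, chrX:93632106-93632405, minus strand: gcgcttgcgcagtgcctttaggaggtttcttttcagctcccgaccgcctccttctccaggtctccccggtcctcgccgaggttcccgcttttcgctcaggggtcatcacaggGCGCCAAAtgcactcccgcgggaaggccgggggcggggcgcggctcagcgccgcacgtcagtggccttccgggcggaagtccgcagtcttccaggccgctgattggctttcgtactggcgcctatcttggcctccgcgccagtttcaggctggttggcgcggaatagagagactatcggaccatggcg

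The 14 genes with an E2F motif in any window had a median log2 ratio (shcircSmad5 over empty vector) of -0.20, with a range from -0.60 to 1.43. The 16 without it had a median of 0.00 and a range from -0.74 to 2.35. The range of the first set lay inside that of the second. Fen1, E2f1, Pcna and Tk1 are among the genes whose windows do not hold these letters, which says nothing about whether E2F binds there. Some windows belong to transcript starts away from the annotated gene start. For E2f1 the only window is 466 bases off and does not cover that start. Lig1 and Uhrf1 hold a motif only in windows 1543 and 992 bases off, and their nearest windows hold none. The motif windows of Mcm7 and Cdc6 are 539 and 350 bases off.

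Most of the 34 genes had close to the same level in both lines. Together they took 0.403% and 0.400% of all counts, and their summed FPKM (counts divided by exon length and library total) was 945.7 and 944.4. The near equality of the FPKM sums includes Fen1, whose level differed most: without Fen1 and E2f2 the sums were 934.8 and 887.3 FPKM. The summed CPM of all 34 genes was 4113 and 3909, a log2 ratio of -0.07. For the summed CPM of all genes with at least 20 counts, that ratio was -0.06. That value follows almost wholly from the TMM factors of the libraries (0.979 and 1.022) and is not a measured difference. A gene was called higher or lower where the scaled ratio was at least 2-fold and its 95% counting interval excluded 1. By this rule 2 of the 34 genes were higher in the shcircSmad5 library, Fen1 and E2f2, and 0 were lower. Among all genes 8.43% were higher and 6.24% lower, and among protein-coding genes 4.61% were higher and 6.38% lower. Of the protein-coding genes that had 500 counts or more in either library, 1.27% were higher and 3.17% lower. Of the 34 genes, 33 reach that count and 1 of these, Fen1, was higher, while E2f2 lies below it. With a 1.5-fold limit, 3 of the 34 were higher (Fen1, E2f2 and Tk1), against 13.9% of all genes, and 2 were lower (Pola1 and E2f1), against 12.9%.

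The median log2 ratio of the 34 genes was -0.08, beside -0.02 for all genes and -0.05 for protein-coding genes. Of the 34, 27 lay within 0.5 of 0 on the log2 scale (79.4%), compared with 65.6% of all genes and 79.5% of the 8397 protein-coding genes with at least 500 counts. The counting interval lay above 0 for 11 genes, below 0 for 16, and held 0 for 7. Of the 8397 abundant protein-coding genes, it lay above 0 for 2850, below 0 for 4023 and held 0 for 1524. The larger number below 0 was therefore not particular to the 34 genes. Counts resolved small differences that a single library per line cannot set apart from the spread between cultures.

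**Figure D1:**
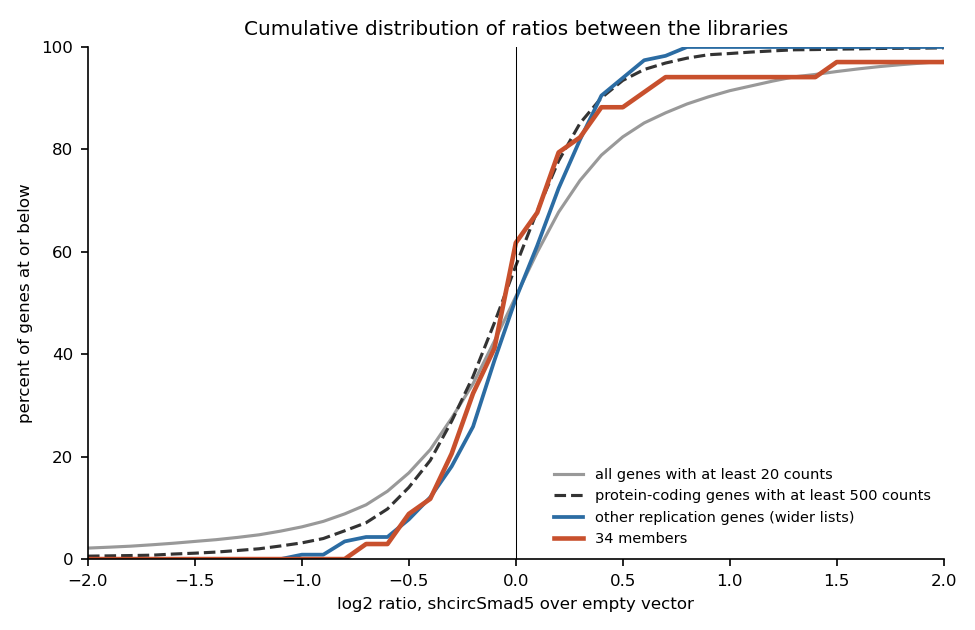
Cumulative share of genes (y axis, percent) by log2 ratio of shcircSmad5 over empty vector (x axis) for all genes with at least 20 counts, protein-coding genes with at least 500 counts, 116 other replication genes and the 34 genes described here. The curve of the 34 genes runs close to that of abundant protein-coding genes, with 79.4% and 79.5% within 0.5 of 0, and 2 of the 34 lie past 1, with Fen1 (2.35) beyond the right edge of the axis.

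**Figure D2:**
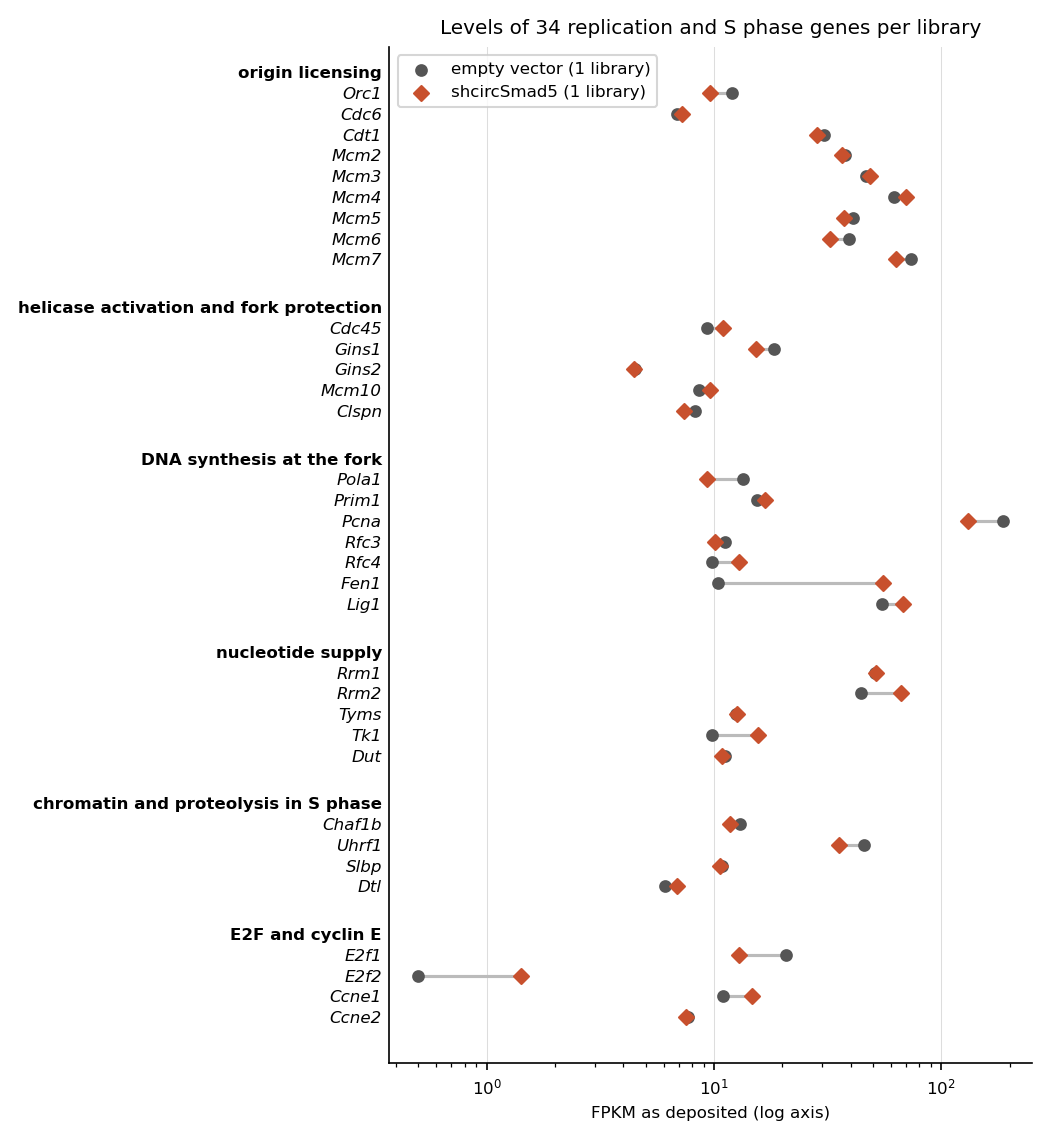
FPKM (log axis) of each of the 34 genes in the empty vector and the shcircSmad5 library, grouped by role, with 1 point per library. Pcna has the highest level in both libraries (187 and 132 FPKM), E2f2 the lowest (0.501 and 1.41), and Fen1 shows the widest gap between its points.

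None of the 9 origin licensing genes passed the rule, and their median log2 ratio was -0.16. Orc1, the largest subunit of the origin recognition complex, had 1648 and 1288 counts, a log2 ratio of -0.39 (interval -0.49 to -0.28) and the lowest of the group. Cdc6, the loader ATPase, was level at 1417 and 1453 counts (0.01, interval -0.10 to 0.11). Cdt1, which brings the MCM complex to the loader, had 3751 and 3437 counts (-0.16).

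The 6 subunits of the MCM2-7 ring lay within a narrow range of each other, which FPKM shows because it divides by gene length. In the empty vector library they ran from 37.7 FPKM for Mcm2 to 73.8 for Mcm7, a 1.96-fold spread, and in the shcircSmad5 library from 32.5 for Mcm6 to 70.2 for Mcm4, a 2.16-fold spread. Their sum was 300.8 and 288.8 FPKM. The order of the subunits was not the same in both libraries: Mcm7 stood first in the empty vector library and Mcm4 in the shcircSmad5 library.

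Mcm7 had the most counts of the group, 12816 and 10779, with a log2 ratio of -0.28 (interval -0.32 to -0.24). Mcm4 was the only subunit with an interval above 0, at 8752 and 9667 counts (0.11). Mcm6 had the lowest ratio of the ring at 7236 and 5828 counts (-0.34, interval -0.39 to -0.29, and -0.37 relative to the median of chromosome 1). Between them stood Mcm5 with 6428 and 5726 counts (-0.20), Mcm2 with 10300 and 9762 (-0.11) and Mcm3 with 6881 and 7010 (-0.00). No subunit of the ring reached the 2-fold limit.

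The 5 genes of helicase activation and fork protection had a median log2 ratio of -0.07, and none passed the rule. Cdc45, a helicase subunit, had 1288 and 1475 counts and the highest ratio of the group (0.17, interval 0.06 to 0.27). Gins1, a subunit of the GINS complex, had 1090 and 891 counts and the lowest (-0.32, interval -0.45 to -0.19), while its partner subunit Gins2 had 721 and 699 (-0.07). The counting interval of Gins2 (-0.23 to 0.08) overlaps that of Gins1. Mcm10, a factor that helps activate the helicase, had the most counts of the group, 2596 and 2847 (0.10), and Clspn, which links the fork to the checkpoint kinase CHK1, had 2335 and 2043 (-0.22).

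Of the 7 genes of DNA synthesis at the fork, 1 was higher and 6 did not pass the rule, with a median of 0.06. Fen1, the nuclease that removes the flap ahead of each lagging-strand fragment (ENSMUSG00000024742, chr19:10199132-10204169, minus strand, GRCm38), had 992 and 5173 counts. The level with the hairpin was 5.11-fold higher (interval 4.77 to 5.47), from 10.4 to 55.6 FPKM. Fen1 ranked number 24 of the 34 genes by FPKM in the empty vector library and number 6 in the shcircSmad5 library. Lig1, the ligase that seals the nick left after flap removal, had 9173 and 11107 counts (0.25, interval 0.21 to 0.29), which did not pass the rule although it acts in the step after FEN1.

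The exons of Fen1 overlap those of opposite-strand genes over 84.2% of their bases. Of all exonic bases of Fen1, 78.8% lie under Gm10143, an antisense gene with 0 and 4 counts, and 5.37% under Tmem258, which had 398 and 409 counts (0.01). Where the counting does not use strand, reads of such a gene and of its partner cannot be told apart, and the strand setting of the counting is not given in the sources used here. Among 30 protein-coding genes with at least 75% of exonic bases under opposite-strand exons, 10 were higher (33.3%) and 1 was lower. In the 11510 with under 50%, 521 were higher (4.53%) and 737 lower (6.40%), and in the 65 between these limits 4 were higher (6.15%). Fen1 is itself among the 30 genes and among the 10 higher, so that share is partly its own value. The classes were drawn after this value was seen. They take genes from 20 counts up, whereas Fen1 had 992 and 5173, and class shares for abundant genes alone were not computed. Gins2, with 67.3% under the opposite-strand gene Gse1 (3837 and 3622 counts), had a log2 ratio near 0. The part of the overlap in the value of Fen1 was not tested.

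**Figure D3:**
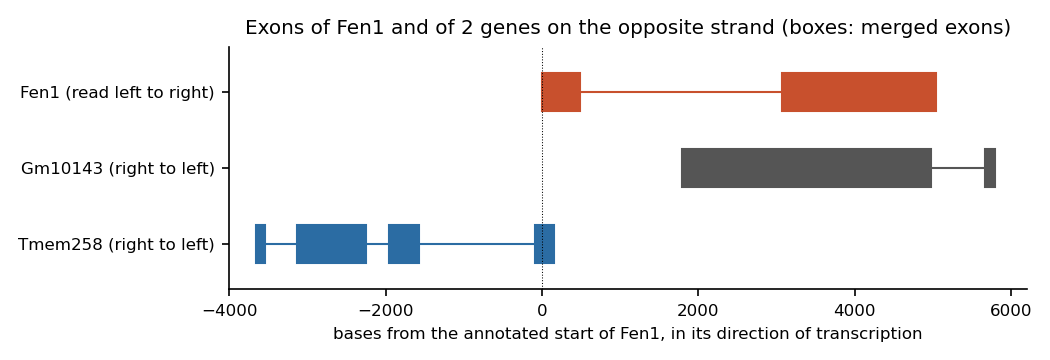
Exons of Fen1, Gm10143 and Tmem258 drawn to scale against the distance in bases from the start of Fen1 (x axis), 1 row per gene. The long exon of Gm10143 spans most of the last exon of Fen1, and the first exon of Tmem258 lies over the start.

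The genes next to Fen1 did not share its ratio. Within 100 kb, Fads1 and Fads2, desaturase genes, had log2 ratios of -0.11 and -0.21, and Dagla had 389 and 251 counts (-0.66). The median of chromosome 19 was 0.14, and relative to it the log2 ratio of Fen1 was 2.21.

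Pcna, the sliding clamp, had the most counts of the synthesis genes, 17593 and 12127, and the highest FPKM of all 34 genes in both libraries. Its log2 ratio was -0.57 (interval -0.60 to -0.53), a size of 1.48-fold, so it did not pass the rule. On chromosome 2, relative to the median there, its value was -0.40. Pola1, the catalytic subunit of the priming polymerase, had the lowest ratio of the group, with 4652 and 3143 counts (-0.60, interval -0.66 to -0.53). Prim1, the primase subunit that works in the same complex, was level at 2345 and 2490 counts (0.06). Pola1 lies on the X chromosome, whose measured genes had a median of -0.43. Relative to that median its value was -0.17. The clamp loader genes Rfc3 and Rfc4 had intervals on opposite sides of 0, with 1586 and 1402 counts (-0.21) and 589 and 759 counts (0.34).

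None of the 5 nucleotide supply genes passed the rule, and the median was -0.05. Tk1, the thymidine salvage kinase, had 2001 and 3111 counts and the highest ratio of the group, 0.61 (interval 0.53 to 0.69), a size of 1.52-fold. Rrm2, the small subunit of ribonucleotide reductase that is made in S phase, had 4837 and 7056 counts (0.51, interval 0.46 to 0.57). Its partner, the large subunit Rrm1, had the most counts of all 34 genes, 22216 and 21736 (-0.06). The subunits of ribonucleotide reductase therefore had unequal ratios: Rrm1 was at 51.4 FPKM in both libraries, while Rrm2 was at 44.5 and 66.3 FPKM. Tyms, the thymidylate synthase gene, had 2987 and 2939 counts (-0.05), and Dut, the dUTPase that keeps uracil out of DNA, had 1055 and 1006 and the lowest ratio (-0.10).

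The 4 genes of chromatin and proteolysis in S phase had a median of -0.15, with none past the rule. Uhrf1, which recruits the maintenance DNA methyltransferase to new DNA, had 7638 and 5815 counts and the lowest ratio, -0.42 (interval -0.47 to -0.37). Uhrf1 lies on chromosome 17, whose measured genes had a median of -0.38, and relative to that its value was -0.04. Dtl, the substrate receptor of the ligase that destroys CDT1 in S phase, had the highest ratio with 3272 and 3632 counts (0.12). Chaf1b, a histone chaperone subunit, had 2385 and 2119 counts (-0.20), and Slbp, which binds the stem loop of replication-dependent histone mRNA, had 2591 and 2477 (-0.09).

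**Figure D4:**
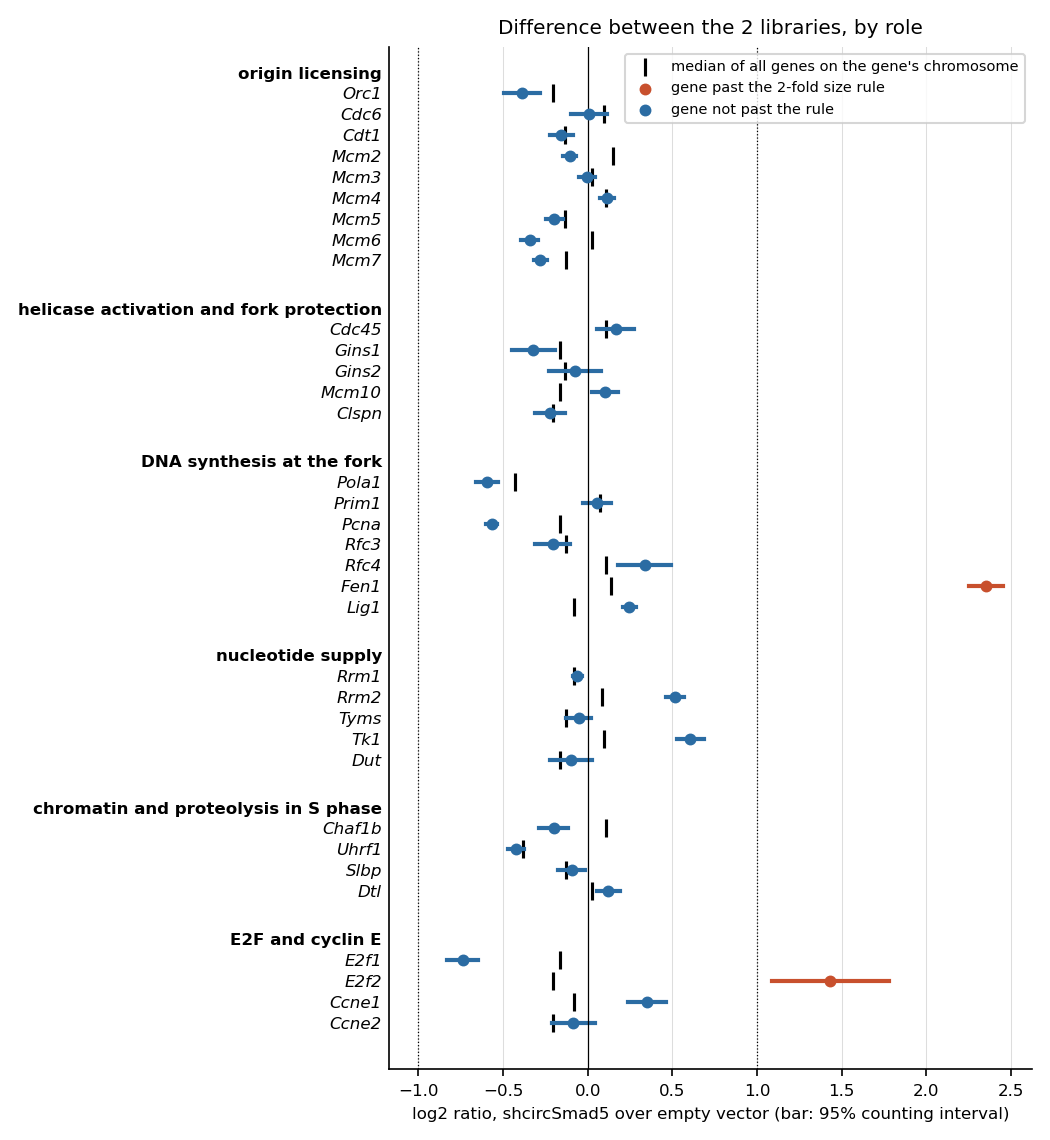
Log2 ratio (x axis, shcircSmad5 over empty vector) of the 34 genes by role, with bars for the 95% counting interval, black ticks for the median of the gene's chromosome and dotted lines at the 2-fold limits. Only Fen1 (2.35) and E2f2 (1.43) lie past the upper limit. Uhrf1 (-0.42) lies near the tick of its chromosome (-0.38), and Pola1 (-0.60) lies below its own (-0.43).

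Of the 4 E2F and cyclin E genes, 1 was higher and 3 did not pass the rule (median 0.13), and the activator E2F genes had ratios of opposite sign. E2f2 (ENSMUSG00000018983, chr4:136172394-136196057, plus strand, GRCm38) had 96 and 264 counts, 2.69-fold higher (interval 2.12 to 3.44). It was the least abundant of the 34 genes, at 0.501 and 1.41 FPKM. E2f1, which had the most counts of the group, had 2562 and 1567, with 20.7 and 12.9 FPKM, and a log2 ratio of -0.74 (interval -0.83 to -0.65), 1.67-fold lower and short of the rule. The summed FPKM of E2f1, E2f2 and E2f3 was 28.7 and 21.3, since E2f2 added little to the sum. No exon of E2f2 lies under an exon of another gene. Its measured neighbours within 100 kb had log2 ratios of 0.58 for Id3, -0.48 for Asap3 and -0.48 for Zfp46. Relative to the median of chromosome 4 the log2 ratio of E2f2 was 1.63, and that of E2f1 relative to chromosome 2 was -0.58.

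The cyclin E genes, whose products activate CDK2 at the G1/S transition, also had unequal values. Ccne1 had 1149 and 1498 counts (0.35, interval 0.24 to 0.46), and Ccne2 had 1054 and 1015 (-0.08, interval -0.21 to 0.04). Their summed FPKM was 18.7 and 22.2.

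Smaller overlaps touched several other genes of the set. Under opposite-strand exons lay 17.4% of the exonic bases of Ccne2, whose partner Ints8 had 1738 and 1559 counts (-0.19), and 12.7% of those of Rfc4, whose partner Eif4a2 had 9117 and 11330 (0.28). Orc1 had 10.8% under Gm12743 (1 and 4 counts), and Tk1 had 1.60% under Afmid (25 and 86 counts). The processed pseudogene Pcna-ps2, which could share reads with Pcna, had 352 and 265 counts (-0.44), few beside those of Pcna. The partners of Ccne2 and Rfc4 had log2 ratios with the same sign as the genes they overlap, although the interval of Ccne2 holds 0. Gm12743 had the opposite sign to Orc1, on 1 and 4 counts. The part of the overlap was not tested.

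Beyond these 34, another 116 replication genes in 6 lists were read by the same rule. In these, 0 were higher and 1 was lower, with a median of -0.01, and 100 of the 116 (86.2%) lay within 0.5 of 0. Across all genes the rule called 8.43% higher and 6.24% lower, with 65.6% within 0.5 of 0. In the abundant protein-coding set (500 counts or more) it called 1.27% higher and 3.17% lower, with 79.5% within 0.5. Not all of the 116 reach the count limit of that set. The gene of the 116 that was lower is Samhd1, a hydrolase that breaks down deoxynucleotide triphosphates. It had 4087 and 1976 counts, 2.11-fold lower (interval 2.00 to 2.23), with 11.4 and 5.63 FPKM. Relative to the median of chromosome 2 (-0.16) its log2 ratio was -0.92, which is short of the rule.

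By list, the medians were -0.06 over 19 other licensing and firing genes, 0.04 over 28 other polymerases and fork factors, -0.16 over 19 other nucleotide supply genes, -0.05 over 20 other genes of E2F, RB and G1/S kinases, -0.09 over 14 other genes of chromatin replication and 0.19 over 16 checkpoint genes. The most abundant by counts in the licensing list were Topbp1, a checkpoint and firing scaffold, with 7477 and 8490 (0.15), and Dbf4, the activator of the CDC7 kinase, with 7816 and 6436 (-0.31). At the fork they were Top1, a topoisomerase, with 10487 and 10221 (-0.07), and Rfc1, the large clamp loader subunit, with 7828 and 6989 (-0.19). Neither list held a gene past the rule.

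In nucleotide supply they were Paics, a purine synthesis enzyme, with 13372 and 9528 counts (-0.52), and Shmt2, a mitochondrial serine hydroxymethyltransferase, with 13134 and 9625 (-0.48). In the E2F and cyclin-kinase list, Ccnd2, a D-type cyclin, had 30176 and 45693 counts (0.57), and Cdk6, a kinase partner of D cyclins, had 24021 and 25526 (0.06). In chromatin replication, Dnmt1, the maintenance DNA methyltransferase, had 9920 and 11365 (0.17), and Hells, a chromatin remodeller, had 8382 and 10641 (0.31).

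In the checkpoint list, Brca1, a DNA repair gene, had 4201 and 5763 counts (0.43), and Wee1, a kinase that holds back mitotic entry, had 4395 and 3443 (-0.38). Cyclin D genes summed to 178 and 246 FPKM. Ccnd2 and Ccnd1 (15818 and 20305 counts, 0.33) were above 0 in log2 ratio and Ccnd3 (3800 and 2242, -0.79) was below. Relative to the median of chromosome 17 (-0.38), where Ccnd3 lies, its log2 ratio was -0.41. None of the 3 passed the rule.

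**Figure D5:**
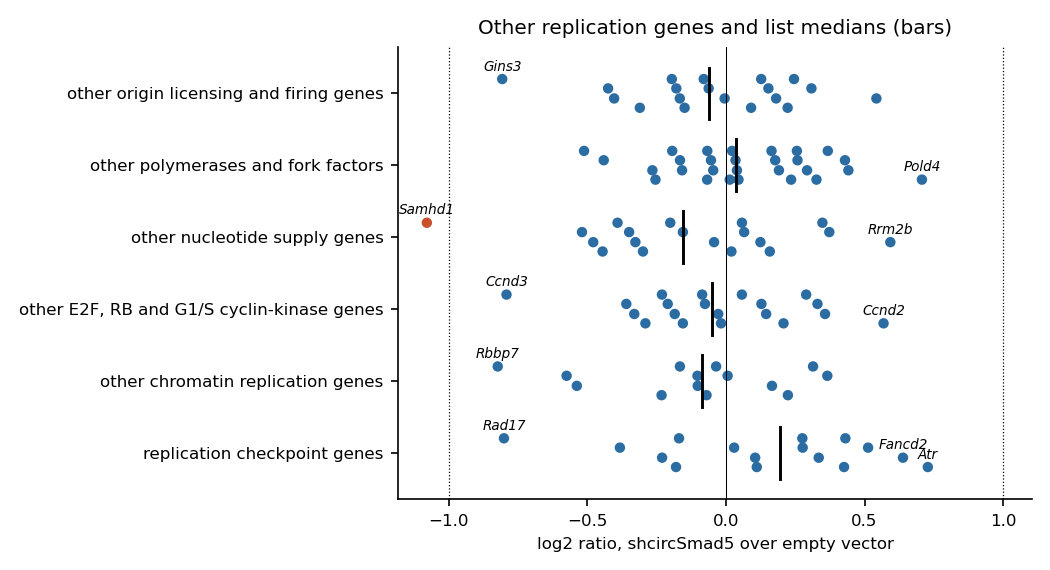
Log2 ratio (x axis, shcircSmad5 over empty vector) of 116 other replication genes in 6 lists, with 1 point per gene and a bar at the median of each list. Samhd1, in orange at -1.08, is the only point past the 2-fold limit, and the list medians lie between -0.16 and 0.19.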

How the data were processed

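The authors deposited a table of read counts and FPKM for 22383 genes in 2 libraries, per the file headers. The submitters' processing notes name HTSeq 0.13.5, HISAT2, and GRCh38 and GRCm38 as builds, without roles. Not given in the sources used here are aligner settings, annotation and strand setting. In the deposited FPKM the gene length equals the exonic length of GENCODE M21 for all 34 genes. Counts were scaled by TMM (edgeR 4.0.16, R 4.3.3), and CPM and ratios, shcircSmad5 over empty vector, were computed from them. Intervals are exact 95% Clopper-Pearson intervals of a gene's split of counts and cover counting error only. They treat reads as independent, and PCR copies of reads are not independent molecules, so the intervals may be too narrow even for that error. The size rule asks for at least 20 counts, a 2-fold ratio and an interval without 1, with 0 set to a floor of 3 counts. It was tested on simulated counts with counting error only, which cannot show how it behaves under the spread between cultures. Named are all genes past the rule, the extremes and most abundant gene of each role, the MCM2-7 genes and, per wider list, the 2 with most counts. The members and lists were chosen with earlier results of these data known. The overlap classes, neighbours, family sums, the comparison at 500 counts, and the genes E2f3, Ccnd1 and Ccnd3 were chosen after values were seen. Alternatives included DESeq2 1.42.0 size factors. Coordinates are GRCm38. The number of value columns left unmatched was 0.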

Additional observations from a re-analysis of the deposited data

How the results depend on the processing

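With 1 library per group, no replicate could be left out, and no paired analysis was possible because each group has 1 library. Under total counts, DESeq2 size factors, upper quartile scaling, TMM on protein-coding genes and totals without mitochondrial and top 20 genes, the 34 genes kept 2 higher and 0 lower, and their median stayed between -0.07 and -0.00. The mean in place of the median was 0.035, of the other sign. The median of all genes moved from -0.02 to at most 0.06. Medians of helicase activation, nucleotide supply, other licensing and other E2F genes took either sign across scalings, as did that of the 116 other genes (-0.01, and 0.00 to 0.07 under the others). Fen1 ranged from 2.21 to 2.43 and E2f2 from 1.33 to 1.63 on the log2 scale. Leaving out genes that overlap others by over 10% removed Fen1 and left 1 higher. With ratios centred on each chromosome's median, 0 of the 116 were lower, since Samhd1 went to -0.92, and 8 of the 34 genes changed sign, all of them short of the rule, as did the median of the synthesis genes (-0.02). At a 1.5-fold limit, 3 of the 34 were higher and 2 lower, and 4 of the 116 were higher and 5 lower. Among all genes 13.9% were higher and 12.9% lower at that limit. At a 3-fold limit, 1 of the 34 was higher and 0 of the 116 were lower, and the share of all genes was not computed. Depth limits E2f2 most, with 96 counts in the empty vector library. The causes were not tested.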
